A study of Caenorhabditis elegans with 8 samples.

Results

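Gonads of Caenorhabditis elegans carrying the sin-3(syb2172) allele were compared with wild-type gonads over all genes. The comparison used 6 of the 8 libraries of the study, chosen by their titles: 3 of sin-3 mutants and 3 of the wild type (wt), numbered as replicates 3, 4 and 5 in each group. The other 2 libraries, replicates 4 and 5 of the hda-3(ok1991) mutant, entered the same statistical model and are given as a second mutant. Each library held RNA of gonads from a pool of 9 to 12 young adults, amplified by a Smart-seq2 type protocol and sequenced as single-end reads, 50 bases long. The replicates are described as independent, and the labels state neither what the syb2172 allele changes nor any cell sorting. A dissected gonad holds germ cells and the somatic cells of the gonad, so in these bulk samples fewer cells of a type and less RNA per cell cannot be told apart.

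SIN3 proteins are scaffolds of co-repressor complexes. They carry class I histone deacetylases, which remove acetyl groups from histone tails, and transcription factors bring them to promoters. They have no known DNA-binding activity of their own. In the C. elegans germ line the X chromosome is largely silent through mitosis and early meiosis, and most genes for germ cell functions lie on autosomes.

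Reads counted on genes numbered 16979891 to 24389531 in the 6 libraries, of which 41.8 to 79.0% lay on nuclear ribosomal RNA. The library sin-3 replicate 3 stood apart, with the highest share of ribosomal RNA, the fewest other reads (5110133) and the lowest scaling factor (0.424, against 2.297 in sin-3 replicate 5). Germ line markers were present in every library: none of the 22 was at 0 reads over a group. Their summed level was 10553 to 18385 CPM (counts scaled to library size, with TMM factors) in wt and 4986 to 14197 CPM in sin-3, which overlapped. Intestine markers summed to 10.1 to 70.2 CPM in wt and 48.2 to 136 CPM in sin-3, and somatic gonad markers to 181 to 301 and 254 to 320 CPM, both overlapping. Muscle markers summed to 212 to 328 CPM in wt and 378 to 580 CPM in sin-3, which did not overlap. Sperm markers summed to 178 to 218 CPM in wt and 144 to 297 CPM in sin-3, against 5326 and 6289 CPM in hda-3.

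The mutated gene was examined first. The gene sin-3 (WBGene00004117; WBcel235 chromosome I, 8416816 to 8425051, plus strand) had 606, 616 and 1274 reads in wt replicates 3, 4 and 5. It had 0, 2 and 1 reads in sin-3 replicates 3, 4 and 5. All sin-3 libraries were near 0 and the hda-3 libraries, at 58.0 and 57.2 CPM, were at the wt level of 55.1 ± 3.34 CPM (SD, n = 3).

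The neighbour that overlaps the end of sin-3 was also lower. F02E9.5 lies on the minus strand from 8424993 to 8426092 and shares 59 bases with the sin-3 span. Its level was 28.6, 19.4 and 35.4 CPM in wt and 11.04, 7.16 and 7.20 CPM in sin-3, with 22.1 and 24.7 CPM in hda-3. The 3 sin-3 libraries lay below all others, and F02E9.5 fell by 1.73 on the log2 scale (SE 0.27, edgeR adjusted p = 0.00498). It kept its call whichever library was left out (adjusted p up to 0.0403) and also differed from hda-3 (-1.48, adjusted p = 0.00349). Whether reads of the sin-3 overlap contribute in wt was not tested. The next genes on either side were not called: F02E9.7 (log2 fold change 1.19, adjusted p = 0.0719), lin-28 (1.17, adjusted p = 0.0782), F02E9.1 (-0.57, adjusted p = 0.187), F02E9.10 (-0.12, adjusted p = 0.791) and dpt-1 (0.28, adjusted p = 0.531).

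Across the genome more genes were called lower than higher at the adjusted threshold. Of 10302 genes tested with edgeR's quasi-likelihood test, 783 (7.6%) passed a Benjamini-Hochberg adjusted p of 0.05, 276 of them higher (2.68%) and 507 lower (4.92%) in sin-3. The median log2 fold change of all genes tested was 0.12. At an unadjusted edgeR p under 0.05, 13.9% of genes were higher and 12.9% lower. With no filter on low counts 688 were called higher and 686 lower. The share called lower rose with level. In quintiles of coding genes by mean level over all 8 libraries, from low to high, it was 0.15, 1.25, 4.71, 8.52 and 10.3%. Most lists below are set against all genes only, not against genes of like level. Of the 783, 775 had no overlap between the 3 sin-3 and the 3 wt libraries, against 29.1% of all genes tested. The number of calls depended strongly on single libraries. Leaving out any 1 of the 8 libraries gave 31 to 693 genes higher and 142 to 760 lower. The fewest higher genes came without wt replicate 5, the fewest lower ones without sin-3 replicate 4, and the most of both without sin-3 replicate 3. In each of the 6 fits without 1 wt or 1 sin-3 library, 140 genes were called again, 21 higher and 119 lower, and the genes described first come from these.

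**Figure D1:**
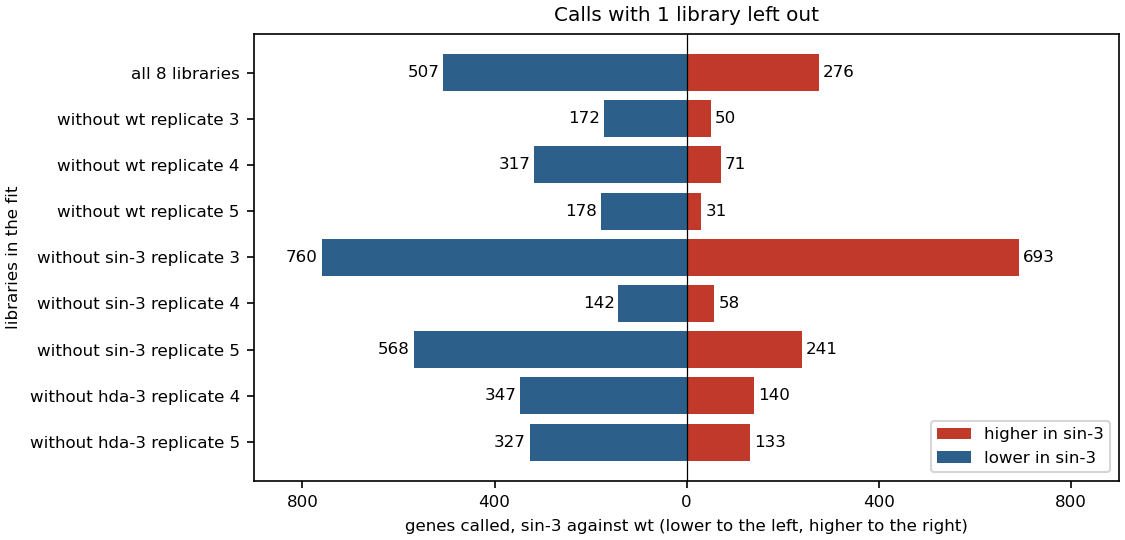
Number of genes called lower (left, blue) and higher (right, red) in sin-3 against wt, for all 8 libraries and with each library left out in turn (vertical axis). Calls were most numerous without sin-3 replicate 3 (760 lower and 693 higher), and falls outnumbered rises in all 9 fits shown.

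The largest rises included genes at low levels in wt. Candidates were coding genes called in all those fits, with at least 5 CPM in the higher group and no overlap between sin-3 and wt. The lack of overlap in the 15 largest rises and 15 largest falls was thus set by the choice. The 15 largest rises had log2 fold changes of 1.55 to 5.43 (adjusted p of 0.00161 to 0.00915). The X-linked gene T22B7.7 was at 0.0846, 0.187 and 0.620 CPM in wt and at 6.39, 11.5 and 26.9 CPM in sin-3. The hda-3 libraries were at 1.29 and 0.988 CPM, between the groups, and the rise in sin-3 was 5.43 (SE 0.69, adjusted p = 0.00216).

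The gene gst-24, which encodes a glutathione S-transferase, was at 0.592, 0.280 and 0.709 CPM in wt and at 6.87, 12.6 and 8.62 CPM in sin-3. The cystatin gene cpi-1, whose product inhibits cysteine proteases, was at 1.86, 1.21 and 0.842 CPM in wt and at 18.8, 18.7 and 8.43 CPM in sin-3. Both rose in all 3 sin-3 libraries, by 4.08 (SE 0.53, adjusted p = 0.00216) and 3.57 (SE 0.48, adjusted p = 0.00242). In hda-3 gst-24 was at 1.01 and 0.301 CPM and cpi-1 at 1.92 and 0.816 CPM, close to wt, and both differed between the mutants (3.78, adjusted p = 7.38e-04, and 3.45, adjusted p = 8.36e-04). The next largest rises were those of fbxb-97, an F-box gene (3.30), C27D8.3 (3.21), C18D4.6 (2.65) and clp-4, a calpain protease gene (2.35).

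The other rises of the 15 were smaller, and some were of genes at higher levels in wt. The gene nmy-1, for a non-muscle myosin heavy chain of contractile somatic cells, was at 3.97, 3.92 and 2.21 CPM in wt and at 16.2, 12.6 and 15.3 CPM in sin-3 (2.14, SE 0.31, adjusted p = 0.00307). The 3 sin-3 libraries stood close together, well above wt. The secondary Argonaute gene sago-1 had a wt mean of 1.81 ± 0.310 CPM and a sin-3 mean of 7.74 ± 1.18 CPM (SD, n = 3; a rise of 2.1, SE 0.33, adjusted p = 0.0052). The citron kinase-related gene citk-1 rose by 1.99, F55G1.7 by 1.68, pqn-21, for a protein rich in glutamine and asparagine, by 1.68, and the spartin gene spg-20 by 1.55. The THAP-domain repressor gene lin-15B and the Argonaute gene vsra-1 completed the set (1.66 and 1.59). The spans of lin-15B and its neighbour lin-15A overlap, and C27D8.3 overlaps another coding gene, so reads of these may be shared.

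The 15 largest falls were those of sin-3 and 14 other genes, of which 4 were histone genes, described further on. These 14 had log2 fold changes of -3.67 to -2.43 (adjusted p of 1.85e-04 to 0.00716). ZK688.11 was at 20.4, 14.1 and 17.9 CPM in wt and at 2.81, 2.33 and 2.56 CPM in sin-3. It fell by 2.77 (SE 0.27, adjusted p = 4.5e-04), with hda-3 between the groups at 9.14 and 10.2 CPM. Y57G11C.36 was at 34.3, 22.3 and 35.2 CPM in wt and at 4.36, 4.71 and 4.70 CPM in sin-3, a fall of 2.73 (SE 0.24, adjusted p = 2.85e-04).

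The bZIP transcription factor gene zip-11 was at 9.98, 7.84 and 16.04 CPM in wt and at 1.16, 0.739 and 1.70 CPM in sin-3. All sin-3 libraries were below all wt and both hda-3 libraries (5.18 and 7.13 CPM), and zip-11 fell by 3.20 (SE 0.42, adjusted p = 0.00216). Levels of fut-3, a fucosyltransferase gene, were at 71.8, 60.1 and 77.4 CPM in wt and at 14.1, 9.92 and 12.2 CPM in sin-3, with hda-3 between them and no overlap (-2.54, SE 0.20, adjusted p = 1.85e-04). H14A12.3 was at 121, 112 and 206 CPM in wt and at 10.6, 14.7 and 36.2 CPM in sin-3 (-2.82, SE 0.44, adjusted p = 0.00716). The remaining falls were T08B2.11 (-3.02), F58A4.2 (-2.76), the claudin-like gene clc-26 (-2.66), gcsh-2 (-2.49) and Y23H5A.2 (-2.43). Of these, F58A4.2, clc-26, gcsh-2, Y23H5A.2 and also Y57G11C.36 overlap another coding gene, and since the strand setting of the counting is not given, their reads may be shared. In all, 50 of the 139 named genes overlap another coding gene. Among those described below, inx-14, pch-2, vha-18, rict-1, fars-2, psf-2, him-14 and rfs-1 do.

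**Figure D2:**
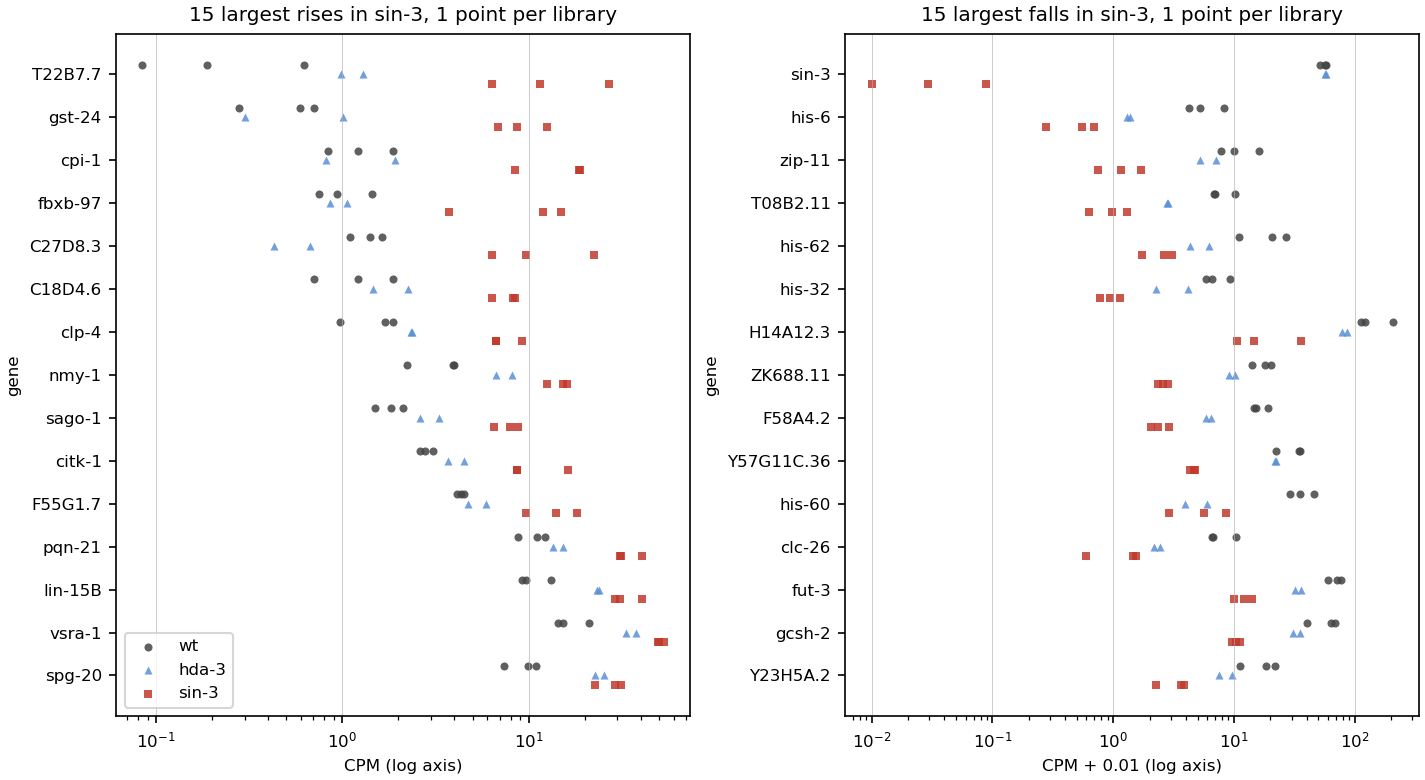
Level of the 15 largest rises (left) and 15 largest falls (right) in each library, in CPM on a log axis, with 0.01 added on the right so that 0 can be drawn; black circles are wt, red squares sin-3 and blue triangles hda-3. Genes were chosen so that no sin-3 library overlaps a wt library. The hda-3 mean lies between the 2 groups for 13 of the 15 rises and 13 of the 14 falls other than sin-3.

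The direct comparison of the mutants set these changes against hda-3. Of the 30 rises and falls, 22 were called between sin-3 and hda-3 by the same test, 11 in each direction. Of all 10302 genes, 15.3% were called between the mutants (2.59% higher and 12.7% lower in sin-3), and of the 783 genes called against wt, 190 (24.3%). The bZIP gene zip-11 differed by -2.32 (adjusted p = 0.00245), fut-3 by -1.50 (adjusted p = 4.24e-04) and C27D8.3 by 4.52 (adjusted p = 3.4e-04). No difference was detected for spg-20 (0.21, adjusted p = 0.678), lin-15B (0.52, adjusted p = 0.214), vsra-1 (0.51, adjusted p = 0.149) or his-60 (0.18, adjusted p = 0.849). Both mutants were set against the same wt libraries.

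Most core histone genes tested were called lower. Core histones form the nucleosome, and most of their genes lie in clusters and are transcribed during DNA replication. Of 72 genes in the files, 24 passed the filter on low counts, and of these 16 were called lower and 0 higher, where 4.92% of all genes were called lower. Their median log2 fold change was -1.90, against 0.12 for all genes, and -1.56, -1.73 and -2.39 in sin-3 replicates 3, 4 and 5. Of the 3 members with the highest wt mean, his-68 was called lower (-1.97, edgeR adjusted p = 0.00908). The other members, his-72 (-0.40, adjusted p = 0.600) and his-74 (-0.13, adjusted p = 0.841), were not called. Many of the core histone genes are nearly identical, so reads may be split between them or dropped.

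The H2B gene his-62 was at 26.98, 10.9 and 20.7 CPM in wt and at 2.61, 3.07 and 1.72 CPM in sin-3 (-3.0, SE 0.39, adjusted p = 0.00216). The H4 gene his-60 was at 45.7, 29.0 and 35.2 CPM in wt and at 8.62, 5.68 and 2.90 CPM in sin-3 (-2.72, SE 0.37, adjusted p = 0.00263). In both genes the groups were far apart, and the hda-3 libraries were low too (4.35 and 6.19 CPM for his-62, 3.96 and 5.93 CPM for his-60). The H3 genes his-6 (-3.67, SE 0.49) and his-32 (-2.90, SE 0.40) fell as well, and all 4 kept their calls whichever library was left out. Of the 16 calls, 8 were made in each of the 6 fits without 1 wt or sin-3 library, and the number lower ranged from 8 (without wt replicate 3) to 17 (without sin-3 replicate 3). The H2B genes his-8 and his-4 had larger fitted changes from few reads and lost their calls without wt replicate 3, wt replicate 5 or sin-3 replicate 4, and his-4 also without wt replicate 4 (adjusted p up to 0.0729 and 0.0955).

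Genes of cytosolic ribosomal proteins had a low median, and the number called depended on the test. Of 81 tested, edgeR called 9 lower (11.1%, against 4.92% of all genes) and 1, rpl-25.1, higher (1.23% against 2.68%), with a median of -1.44. Of coding genes in quintiles 4 and 5 by mean level (5 the highest), 8.52 and 10.3% were called lower. At an unadjusted p under 0.05, 69 were lower, where 12.9% of all genes were. DESeq2 called 53 of the 81 lower, where it called 8.08% of all genes with an adjusted p lower and 6.55% higher. In sin-3 replicates 3, 4 and 5 the median was -0.74, -1.35 and -3.16, so the libraries of 1 group differed widely. The gene rpl-25.2 was at 777, 745 and 587 CPM in wt and at 316, 205 and 69.9 CPM in sin-3 (-1.84, SE 0.47, adjusted p = 0.0388). Dropping any 1 wt library, or sin-3 replicate 4, ended its call (adjusted p up to 0.119). Over the list, dropping wt replicate 3 left 0 genes lower and dropping sin-3 replicate 3 gave 75. In hda-3 rpl-25.2 was at 159 and 211 CPM, within the sin-3 range.

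Other genes of protein synthesis and turnover had 0 higher by edgeR and between 2 and 5 lower in a list. Mitochondrial ribosomal proteins had 5 of 70 lower and 0 higher (7.14% against 4.92% of all genes, median -0.29). Translation factors had 2 of 43 lower (4.65%, median -0.34) and proteasome subunits 2 of 33 lower (6.06%, median -0.56), with 0 higher in both. Of 31 tRNA synthetase genes 4 were lower (12.9%) and 0 higher. DESeq2 called 8 mitochondrial ribosomal, 9 translation factor, 7 tRNA synthetase and 3 proteasome genes lower, and at an unadjusted p under 0.05 those lower numbered 23, 13, 7 and 11. The one called whichever library was left out was fars-2, for a phenylalanyl-tRNA synthetase, at 50.1, 47.7 and 54.2 CPM in wt and 25.6, 25.8 and 17.6 CPM in sin-3 (-1.14, SE 0.19, adjusted p = 0.00716). The groups did not overlap, and hda-3 was at 28.1 and 31.5 CPM. Without sin-3 replicate 3, 12 proteasome genes were lower.

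Genes of the transcription and splicing machinery were mixed. Among RNA polymerase II and Mediator genes 6 of 58 were lower (10.3%) and 1 higher. Mediator bridges transcription factors and the polymerase, and 5 of the 6 falls were Mediator subunits, led by mdt-26 (-1.28), mdt-22 (-1.22) and mdt-18 (-1.04), with mdt-8 and mdt-29 beside them. The X-linked taf-3, for a subunit of the general factor TFIID, was the rise (1.66). Each of these calls was lost when some single library was dropped: all 4 with a value here lost it without wt replicates 3 and 5, mdt-26 and taf-3 also without wt replicate 4, and the Mediator genes on dropping sin-3 replicate 4 (largest adjusted p 0.126). Spliceosome genes had 3 of 63 lower (4.76%) and nuclear pore genes 1 of 39 (2.56%), against 4.92% of all genes, with 0 higher in both.

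Small RNA genes held changes in both directions. Argonautes bind small RNAs, and in the germ line piRNAs and the secondary small RNAs made after them silence foreign and some endogenous transcripts. Of 70 genes tested 3 were higher (4.29%) and 11 lower (15.7%), with a median of -0.17. The 3 higher genes all kept their calls whichever library was left out: sago-1 and vsra-1, given above, and eri-9, a factor of endogenous siRNA production. The eri-9 level was 38.8, 36.8 and 40.3 CPM in wt, 86.2, 80.4 and 95.6 CPM in sin-3 and 44.2 and 47.4 CPM in hda-3. Only the sin-3 libraries were high, and eri-9 differed from wt by 1.18 (SE 0.17, adjusted p = 0.00307) and from hda-3 by 0.93 (adjusted p = 0.00448).

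The falls included factors of piRNA production. The gene tofu-2, for a subunit of the nuclease that cuts piRNA precursors, was at 161, 123.9 and 212 CPM in wt and at 57.4, 58.8 and 56.9 CPM in sin-3 (-1.52, SE 0.22, adjusted p = 0.0033). The hda-3 libraries, at 64.5 and 68.4 CPM, were low as well, and the mutants were not called different (-0.20, adjusted p = 0.684). Chosen after their values were seen, tofu-1 (-1.0), tofu-6 (-0.88), tofu-7 (-0.92) and pid-1 (-1.13) of piRNA production were also called lower. So was pid-4 (-0.97), of the silencing that follows piRNAs, chosen in the same way. The remaining falls of the list were hrde-2 (-1.17, adjusted p = 0.00644), simr-1 (-1.098, adjusted p = 0.00634), rde-4, rde-8 and alg-5. The Argonaute gene prg-1 of the same list was not called (-0.21, adjusted p = 0.678). The number of falls in the list was 2 on dropping sin-3 replicate 4, while dropping sin-3 replicate 5 gave 13.

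Genes of the meiotic axis, synapsis and pairing had 3 of 33 lower (9.09%) and 0 higher, with a median of -0.11. The gene pch-2, for the pachytene ATPase that remodels HORMA-domain axis proteins, was at 19.1, 17.5 and 18.3 CPM in wt, 4.65, 3.93 and 5.25 CPM in sin-3 and 14.3 and 14.9 CPM in hda-3. The sin-3 libraries stood below both other groups, with differences of -1.99 from wt (SE 0.23, adjusted p = 0.00129) and -1.66 from hda-3 (adjusted p = 5.96e-04). Genes of breaks and crossovers had 6 of 41 lower (14.6%) and 0 higher, with a median of -0.12. They included rfs-1, a RAD-51 paralog (-2.33), him-14, an MSH4 homologue (-1.29), rec-1 (-1.18) and zhp-1, a RING-domain gene (-1.14). For all 4, dropping wt replicate 5 or sin-3 replicate 4 ended the call, as did dropping wt replicate 3 for all but him-14 (adjusted p up to 0.187); without sin-3 replicate 4 the list had 0 falls.

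In cell division, most members of each list were not called, and no list was tested as a whole. Kinetochore and segregation genes had 5 of 39 lower (12.8%, against 4.92% of all genes) and 1 higher. At an unadjusted p under 0.05, 11 were lower and 1 higher, where 12.9% of all genes were lower. The gene cin-4, which encodes a topoisomerase II-like protein, was at 33.8, 29.2 and 33.2 CPM in wt and at 6.49, 7.08 and 4.61 CPM in sin-3 (-2.41, SE 0.24, adjusted p = 5.4e-04). All sin-3 libraries were low, and the hda-3 libraries lay between the groups (11.4 and 14.6 CPM). The other falls were kbp-2, kbp-1, bub-3 and san-1, and mis-12, a kinetochore gene, was the rise (1.15), lost without wt replicates 3 and 4 or sin-3 replicate 4 (adjusted p up to 0.084). The calls of kbp-2 and kbp-1 ended on dropping wt replicates 3 or 5, or sin-3 replicate 4 (largest adjusted p 0.169).

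The anaphase-promoting complex and the SCF complex are ubiquitin ligases that drive the cell cycle. Their core genes had 4 of 27 lower (14.8%) and 0 higher. The gene apc-10, whose product helps the complex bind its substrates, was at 88.2, 68.1 and 154 CPM in wt and at 21.2, 20.5 and 31.6 CPM in sin-3 (-2.08, SE 0.32, adjusted p = 0.00454). It kept its call whichever library was left out, and no sin-3 library reached the wt range. The others were skr-1 (-1.22), apc-11 (-1.18) and cul-1 (-0.76), whose calls ended on dropping wt replicate 3 or sin-3 replicate 4 (largest adjusted p 0.107). Of 58 cell cycle and replication genes 3 were lower (5.17%, against 4.92% of all genes) and 1 higher (1.72%, against 2.68%). A GINS subunit gene of the replicative helicase, psf-2, fell from 13.7 ± 2.01 to 4.42 ± 0.351 CPM (-1.64, SE 0.26, adjusted p = 0.00524). Centrosome and spindle genes had 1 of 34 lower (2.94%), tac-1 (-1.13, adjusted p up to 0.129 without 1 library). Genes of stem cells and meiotic entry had 0 of 24 called by edgeR and apoptosis genes 0 of 28; at an unadjusted p under 0.05 they had 3 higher and 2 lower, and 1 higher and 2 lower, and DESeq2 called 1 higher and 1 lower in each.

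Among genes of one-carbon and of biotin and lipid metabolism, 3 fell and kept that call whichever library was left out: gcsh-2, sams-3 and bpl-1. The gene gcsh-2, for an H protein of the glycine cleavage system, was at 64.1, 40.5 and 68.7 CPM in wt and at 11.1, 10.3 and 9.61 CPM in sin-3 (-2.49, SE 0.23, adjusted p = 3.19e-04). The gene bpl-1, for the biotin protein ligase that loads biotin onto carboxylases, was at 23.2, 22.3 and 29.1 CPM in wt and at 4.16, 4.32 and 6.19 CPM in sin-3 (-2.33, SE 0.25, adjusted p = 8.05e-04). The S-adenosylmethionine synthetase gene sams-3 fell from 75.3 ± 10.7 CPM to 25.004 ± 2.37 CPM (-1.59, SE 0.18, adjusted p = 0.00122). In all 3 the groups did not overlap, and sin-3 was also below hda-3 (-1.68, -1.83 and -0.96; adjusted p = 4.25e-04, 4.74e-04 and 0.00478). Each overlaps another coding gene.

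The glycine and one-carbon list as a whole had 3 of 17 lower (17.6%) and 0 higher, the third being dao-3 (-1.68), whose call was lost whichever library was left out (adjusted p up to 0.141). The biotin and lipid list had 1 of 20 in each direction (5.0%, against 2.68% of all genes higher and 4.92% lower). Its rise, fasn-1, encodes fatty acid synthase. It was at 20.5, 38.6 and 19.8 CPM in wt, 58.4, 58.5 and 42.9 CPM in sin-3 and 14.96 and 14.3 CPM in hda-3. The sin-3 libraries were the highest, 1.02 above wt (SE 0.26, adjusted p = 0.0394) and 1.86 above hda-3 (adjusted p = 0.00113), and the call against wt was lost on dropping an hda-3 library, wt replicates 3 or 5, or sin-3 replicate 4 (largest adjusted p 0.145).

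The V-ATPase, a proton pump of internal membranes, had 3 of 20 genes higher (15%) and 3 lower (15%). The subunit H gene vha-18 was at 71.2, 71.3 and 87.9 CPM in wt and at 23.1, 26.1 and 28.8 CPM in sin-3 (-1.56, SE 0.18, adjusted p = 0.00122), with hda-3 between at 46.6 and 46.9 CPM. It was called whichever library was left out. In TOR and insulin signalling 3 of 25 genes were higher (12.0%) and 0 lower. The Rictor gene rict-1, of TOR complex 2, was at 20.6, 25.1 and 27.1 CPM in wt and at 64.4, 59.8 and 85.9 CPM in sin-3 (1.53, SE 0.21, adjusted p = 0.00259), and the sin-3 libraries were also above hda-3 (0.92, adjusted p = 0.0164). The other rises, akt-2 and aak-2, are X-linked kinase genes called with all libraries and lost on dropping any 1 except sin-3 replicate 3 (largest adjusted p 0.164 and 0.161). Respiratory chain genes had 2 of 69 higher (2.9%, against 2.68% of all genes) and 1 lower (1.45%, against 4.92%). Glycolysis genes had 1 of 19 higher (5.26%), tpi-1 (0.85). The call of tpi-1 was lost on leaving out each wt or hda-3 library in turn (adjusted p up to 0.094). Genes of mitochondrial DNA had 0 of 12 called by edgeR, 3 higher at an unadjusted p under 0.05 and 4 higher by DESeq2. Their median was 1.364, and 2.27, 1.91 and 0.19 in sin-3 replicates 3, 4 and 5.

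**Figure D3:**
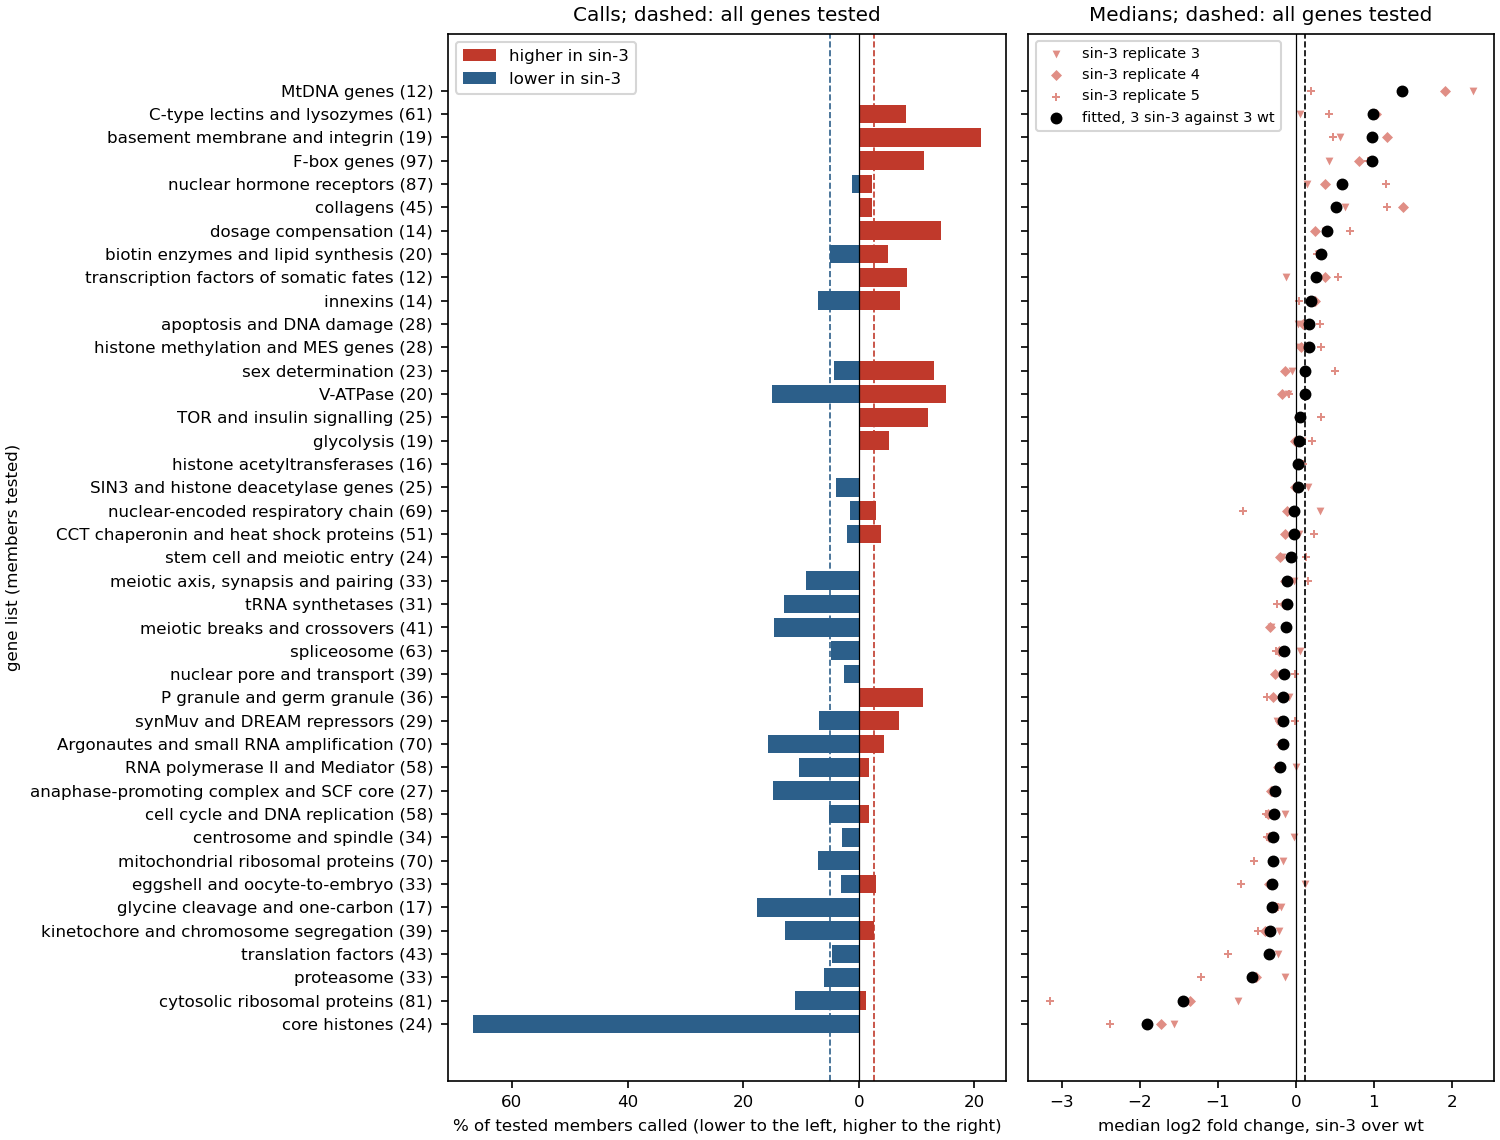
Left, the share of tested members called lower (blue, to the left) and higher (red, to the right) in sin-3 for each gene list, with the number tested in brackets and dashed lines at the shares over all genes (4.92 and 2.68%). Right, the median log2 fold change, fitted (black) and in each sin-3 library against the wt mean (red symbols); core histones have a fitted median of -1.90, and the sin-3 libraries spread widely for ribosomal proteins (-0.74 to -3.16) and genes of mitochondrial DNA (0.19 to 2.27).

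Innexin genes, which encode gap junction subunits, had 1 of 14 higher (7.14%) and 1 lower (7.14%), with a median of 0.19. The gene inx-14, whose product forms gap junctions between germ cells and the sheath, was at 108, 98.8 and 106 CPM in wt, 24.7, 19.4 and 26.7 CPM in sin-3 and 65.0 and 63.6 CPM in hda-3. The groups were fully apart (-2.14 against wt, SE 0.19, adjusted p = 2.85e-04, and -1.45 against hda-3, adjusted p = 3.86e-04). The span of inx-14 overlaps another coding gene, so its reads may be shared. The gene inx-10 was at 0.254, 0.280 and 0.221 CPM in wt and at 0.775, 0.856 and 1.89 CPM in sin-3 (2.26, SE 0.61, adjusted p = 0.0449), from 3 to 5 reads in each wt library, and its call was lost on dropping any 1 library except sin-3 replicate 3 (largest adjusted p 0.152).

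Genes of the basement membrane, the matrix around the gonad and muscles, and of its integrin receptors rose in part. Of 19 basement membrane and integrin genes 4 were higher (21.1%) and 0 lower, with a median of 0.98. The type IV collagen gene emb-9 was at 4.31, 9.61 and 6.64 CPM in wt, 15.4, 24.0 and 15.1 CPM in sin-3 and 3.002 and 2.66 CPM in hda-3. Its partner chain gene let-2 was at 4.23, 14.5 and 9.44 CPM in wt, 17.3, 30.6 and 25.9 CPM in sin-3 and 4.56 and 3.82 CPM in hda-3. The SPARC gene ost-1, for a matrix protein that binds type IV collagen, was at 10.8, 22.6 and 18.5 CPM in wt, 45.2, 54.1 and 33.2 CPM in sin-3 and 8.13 and 5.67 CPM in hda-3. In all 3 genes every sin-3 library lay above every wt library and no hda-3 library did.

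The rises over wt were 1.41 for emb-9 (SE 0.33, adjusted p = 0.028), 1.40 for let-2 (SE 0.38, adjusted p = 0.0475), 1.35 for ost-1 (SE 0.29, adjusted p = 0.0197) and 1.32 for the integrin alpha gene ina-1 (SE 0.36, adjusted p = 0.0463). Between the mutants the differences were 2.68, 2.56 and 2.67 for the first 3 (adjusted p = 5.96e-04, 0.00207 and 3.06e-04), and 0.43 for ina-1 (adjusted p = 0.562). All 4 calls over wt were lost without wt replicates 3 or 5 and without sin-3 replicate 4; let-2 and ina-1 also lost theirs on dropping an hda-3 library or sin-3 replicate 5, and ina-1 without wt replicate 4 (adjusted p up to 0.15). These genes are also expressed by somatic cells of the gonad and by muscle; over those lists 4 of 22 somatic gonad markers (nmy-1, emb-9, let-2 and ina-1) and 0 of 23 muscle markers were higher, with medians of 0.95 and 0.73, and the part of those cells in the result was not tested. At an unadjusted p under 0.05, 7 muscle markers were higher and 1 lower, and DESeq2 called 3 higher.

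Genes of oocytes, germ granules and sex determination had few calls. P granule and germ granule genes had 4 of 36 higher (11.1%) and 0 lower by edgeR, with a median of -0.17. At an unadjusted p under 0.05 they had 5 higher and 8 lower, and DESeq2 called 5 higher and 2 lower. The 4 higher by edgeR were meg-1, meg-2 and meg-3, all on the X and encoding proteins of embryonic P granules, and the decapping gene dcap-2. The gene meg-3 was at 18.5, 30.2 and 17.8 CPM in wt and at 39.2, 44.0 and 50.4 CPM in sin-3 (1.01, SE 0.23, adjusted p = 0.0256), with hda-3 at 45.6 and 36.1 CPM. All 4 calls ended on dropping wt replicates 3 or 5, or sin-3 replicate 4 (largest adjusted p 0.145). Those of meg-1 and meg-2 also ended on dropping either hda-3 library, and that of meg-2 without wt replicate 4 or sin-3 replicate 5. Sex determination genes had 3 of 23 higher, the germ cell fate gene fog-1 and the X-linked sex-1 and sdc-1, and 1 lower, fem-2 (-1.03, SE 0.19, adjusted p = 0.0117; lost without wt replicate 3, adjusted p = 0.0537). Eggshell genes had 1 of 33 in each direction (3.03%, against 2.68% of all genes higher and 4.92% lower). Of 93 sperm genes tested 1 was higher (1.08%), fog-1 (0.84). Called lower were 3 (3.23%), cpb-1 (-1.73), spe-44 (-1.49) and spe-5 (-1.18). These falls were lost without wt replicate 5 or sin-3 replicate 4 (adjusted p up to 0.126). The median of the sperm list was 0.79, or 0.76 when the 6 genes without reads in 1 group take the bound that 3 counts over the group give. In sin-3 replicates 3, 4 and 5 the median was -1.03, 1.16 and 0.90, so 1 library went the other way, and the rises numbered 0 on dropping wt replicate 3, while dropping sin-3 replicate 3 gave 23. DESeq2 called 4 sperm genes higher and 3 lower.

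Chromatin genes held changes in both directions beside sin-3. Of 25 SIN3 and histone deacetylase genes 1 was lower, sin-3 itself, and 0 higher (median 0.03). Histone acetyltransferases had 0 of 16 called by edgeR and histone methylation genes 0 of 28. At an unadjusted p under 0.05 these had 2 higher and 2 lower, and 7 higher and 1 lower, and DESeq2 called 1 and 0, and 3 and 1. Repressors of the synMuv and DREAM classes had 2 of 29 higher (6.9%), lin-15B and lin-15A, and 2 lower (6.9%), cec-4 (-0.96) and arle-14 (-0.90). Dosage compensation genes had 2 of 14 higher (14.3%) and 0 lower, with a median of 0.40: sex-1 (1.39) and sdc-1 (1.38). Apart from that of lin-15B, these calls were lost without wt replicate 3, wt replicate 5 or sin-3 replicate 4 (adjusted p up to 0.164).

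Some large gene families hold many members with few reads in wt. Of all genes under 1 CPM in wt, 3.25% were called higher and 0.0806% lower. F-box genes, which encode substrate receptors of SCF ligases, had 11 of 97 higher (11.3%) and 0 lower, with 322 in the files. Their median was 0.97, or 0.84 when the 8 without reads in 1 group take their bound. Of the 97, 67 were under 1 CPM in wt, and 9 of the 11 calls were among these. The gene fbxb-97 was at 1.44, 0.933 and 0.753 CPM in wt, 15.01, 11.9 and 3.75 CPM in sin-3 and 1.06 and 0.859 CPM in hda-3. The sin-3 libraries were the only high ones (3.30, SE 0.54, adjusted p = 0.00574), and fbxb-97 was the only member called whichever library was left out. Rises in this family numbered 1 on dropping wt replicate 5, and dropping sin-3 replicate 3 gave 16.

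C-type lectin and lysozyme genes had 5 of 61 higher (8.2%) and 0 lower, with 52 of them under 1 CPM in wt and all 5 calls among these. The summed level of the family went the other way, at 18305 to 34891 CPM in wt and 5044 to 23454 CPM in sin-3, with overlap, and most of it was clec-87, which was not called (20422 ± 8277 CPM in wt and 10281 ± 8367 CPM in sin-3, SD, n = 3; edgeR adjusted p = 0.455). The lysozyme gene lys-7, also an intestine marker, had 2, 0 and 0 reads in wt replicates 3, 4 and 5 and was at 2.13, 1.32 and 2.04 CPM in sin-3; its call was lost without wt replicates 4 or 5 (adjusted p up to 0.0771). Among 27 intestine markers, lys-7 and also clec-63 were higher (the latter lost in 6 of the 8 fits without 1 library, adjusted p up to 0.152), with a median of 1.45, and their part in the lectin result was not tested. Nuclear hormone receptor genes had 2 of 87 called higher (2.3%) and 1 lower by edgeR, and collagens 1 of 45 higher (2.22%). These shares were below that of all genes, but the medians were 0.59 and 0.52. At an unadjusted p under 0.05, 18 receptor genes were higher and 3 lower, where 13.9% of all genes were higher. Collagens had 4 higher and 2 lower. DESeq2 called 4 receptor genes higher and 1 lower, and 1 collagen higher. Of the 87 receptor genes, 54 were under 1 CPM in wt. Transcription factors of somatic fates had 1 of 12 higher, pal-1 (1.12; lost without wt replicates 3 or 5, adjusted p up to 0.0833). Neuron and epidermis markers had 0 of 9 called by edgeR and by DESeq2 in each, with 1 neuron marker higher and 1 lower and no epidermis marker at an unadjusted p under 0.05. With at least 5 reads in every sin-3 library, 1 gene had 0 reads in wt: scl-2, on chromosome IV, with sin-3 libraries at 9, 11 and 24 reads and hda-3 libraries at 5 and 9. It was chosen after its values were seen. No gene showed the opposite.

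The X chromosome differed from the autosomes. Of 1148 X-linked coding genes tested, 57 were higher (4.97%) and 4 lower (0.348%); of 8817 autosomal ones, 207 were higher (2.35%) and 493 lower (5.59%). The median log2 fold change was 0.72 on the X and 0.05 on autosomes. The difference of the medians was 0.66, and 0.39, 0.65 and 0.88 for sin-3 replicates 3, 4 and 5 against the wt mean. Each wt library against the other wt libraries gave 0.30, 0.32 and -0.54, so wt libraries differed among themselves by amounts of like size. The X-linked share of reads outside nuclear ribosomal RNA was 0.998, 1.11 and 0.723% in wt, and the sin-3 libraries were at 1.32, 2.24 and 3.21%, with hda-3 at 2.37 and 1.45%. All sin-3 libraries were above all wt libraries, at 2.26 ± 0.943% against 0.944 ± 0.199% (two-sided exact permutation p = 0.1, the smallest that 3 against 3 libraries can give). Only 3 X-linked genes were called higher in each fit that left out 1 wt or sin-3 library, T22B7.7, nmy-1 and lin-15B, and 1 lower, sto-4.

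X-linked genes are weakly expressed in the gonad, so they were also set against autosomal genes of like level. In quintiles of coding genes by mean level over all 8 libraries, from low to high, X-linked medians were 0.91, 0.63, 0.77, 0.46 and 0.24. Autosomal medians were 0.75, 0.52, 0.13, -0.05 and -0.25. The X-linked median was the higher one in every quintile, with the smallest gaps in the lowest 2 quintiles.

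**Figure D4:**
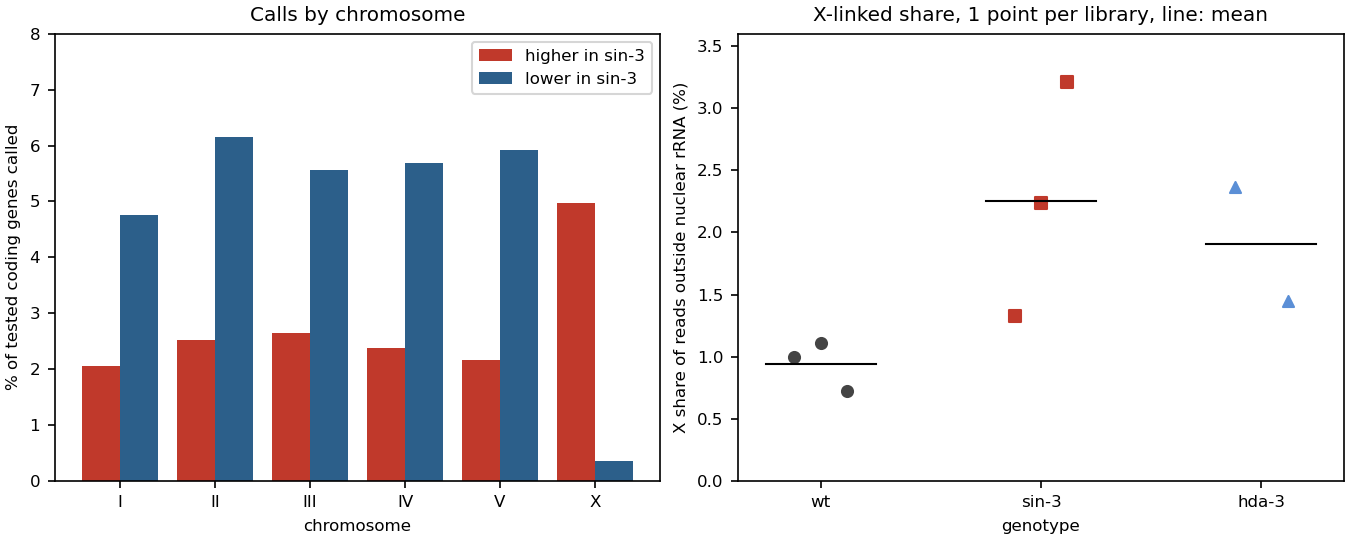
Left, share of tested coding genes called higher (red) and lower (blue) in sin-3 for each chromosome. Right, the X-linked share of reads outside nuclear ribosomal RNA in each library (points) with the group mean (line); the sin-3 libraries lie at 1.32 to 3.21% and the wt libraries at 0.723 to 1.11%.

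Lower genes lay next to other lower genes. For each tested autosomal coding gene the nearest tested coding gene that did not overlap it was taken. Among 493 genes called lower, that neighbour was itself lower for 107 (21.7%), against 5.46% of the 8117 genes not called. Among 207 genes called higher, the neighbour was higher for 1 (0.483%), against 2.17% of the genes not called. With a gap under 200 bases the share of lower neighbours was 30.1% of 229 lower genes and 7.58% of genes not called, and with a larger gap 14.4 and 4.61%. On the same strand it was 25.2%, against 5.79% of genes not called, and on the opposite strand 14.9%, against 4.97%. The median gap of the lower genes also differed, at 130 bases on the same strand and 394.5 bases on the opposite strand. Many C. elegans genes with short gaps on 1 strand are co-transcribed in operons. These shares describe genes, which are not independent, and the lower genes have shorter gaps (median 230 bases) than the genes not called (563 bases).

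Several of the largest falls were in such neighbourhoods. ZK688.11 lies 120 bases from ZK688.5 on chromosome III, which fell by 2.02 (SE 0.19, adjusted p = 4.5e-04). H14A12.3 lies 360 bases from fum-1, the fumarase gene, which fell by 1.79 (SE 0.25, adjusted p = 0.00288). On chromosome II fut-3 lies 105 bases from ift-43, an intraflagellar transport gene (-2.83, SE 0.55, adjusted p = 0.0131), which is followed after 394 bases on the other strand by mdt-26. On chromosome I the nearest tested gene that does not overlap gcsh-2 (-2.49) is inx-14 (-2.14), 2881 bases away on the same strand. The histone genes his-59, his-60, his-61 and his-62 lie together on chromosome IV.

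Level and length of the genes moved with the direction of change. From the lowest to the highest quintile by mean level the median log2 fold change was 0.77, 0.56, 0.26, -0.04 and -0.25, and lower genes numbered 3, 25, 94, 170 and 205. In sin-3 replicates 3, 4 and 5 against the wt mean the lowest quintile was at 0.24, 0.74 and 0.41, below the fitted 0.77. The highest was at -0.15, -0.30 and -0.37. The hda-3 libraries ran the same way, from 0.90 to -0.41 in replicate 4 and from 0.25 to -0.30 in replicate 5. From the shortest to the longest quintile by exonic length the median was -0.02, 0.08, 0.15, 0.16 and 0.21, and lower genes numbered 165, 121, 101, 70 and 40. Single wt libraries also ran along length: wt replicate 3 against the other wt libraries went from 0.28 in the shortest to -0.16 in the longest quintile, and wt replicate 4 from -0.18 to 0.16. Genes called lower had a median exonic length of 1118 bases and genes called higher 1700 bases, against 1445 bases for all coding genes tested. Histone (411 bases) and ribosomal protein genes (530 bases) are among the short ones, and the part of length in their values was not tested.

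**Figure D5:**
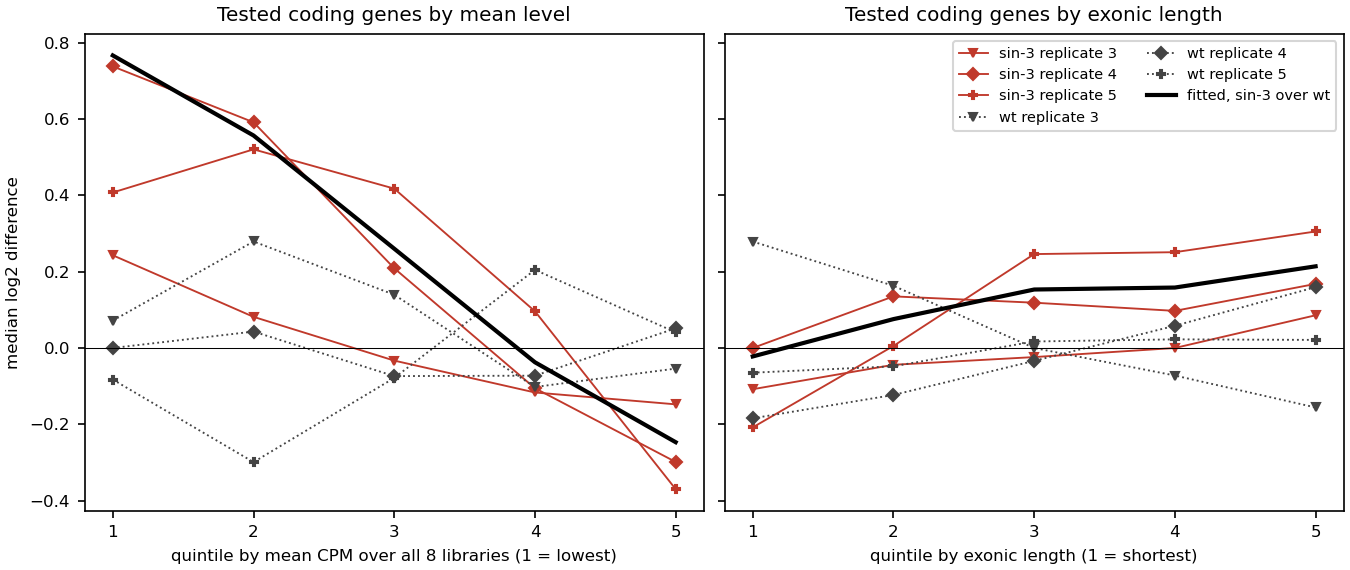
Median log2 difference of tested coding genes in quintiles by mean level over all 8 libraries (left) and by exonic length (right): the fit of sin-3 over wt (thick black), each sin-3 library against the wt mean (red) and each wt library against the other wt libraries (dotted), on log2 CPM with a prior count of 2. The fit falls from 0.77 to -0.25 with level, and wt replicate 3 falls from 0.28 to -0.16 with length.

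The authors' deposited table of the same comparison lists 13084 genes, of which 1112 have an adjusted p under 0.05, 427 higher and 685 lower. It shares 683 genes with the 783 called here, 87.2% of these and 61.4% of its own, all with the same sign. All 30 largest rises and falls are among its calls.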

How the data were processed

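RNA of dissected gonads was measured in 8 libraries, of which 3 sin-3 and 3 wild-type libraries were compared and 2 hda-3 libraries shared the estimate of the spread. The authors deposited 1 table of read counts per gene for each library, with no normalization. The tools listed are HTSeq 0.7.2, DESeq2 1.36.0, STAR 2.7.3a and fastp 0.20.1, per the submitters' processing notes. Which build, annotation and strand option the counter used is not given in the sources used here. The authors' deposited comparison table holds mean normalised counts (a signal that is not a raw count), log2 fold changes and p-values, and was used only for overlaps of calls. The counter's own lines were left out of library sizes: reads in no feature made up 1.06 to 2.27%, ambiguous reads 0.673 to 1.55% and reads with several alignments 3.03 to 5.57%.

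Counts were tested with edgeR 4.0.16 in R 4.3.3: filterByExpr (minimum count 10, minimum total 15), TMM scaling, robust quasi-likelihood fit with a term per genotype, and Benjamini-Hochberg adjustment over all genes tested at 0.05. The standard error is the fold change divided by the root of the F statistic. CPM values use TMM-scaled library sizes, which include ribosomal RNA reads before scaling. A prior count of 2 was used for single-library log2 values. DESeq2 1.42.0 was an alternative. Others were RLE scaling, no filter, 6 libraries only, a replicate block, TMM on autosomal genes, leaving out ribosomal RNA genes and leaving out each library. The fit was tested on simulated data. Names, positions and lengths come from the WBcel235 annotation (Ensembl 115), which holds 46923 of 46934 identifiers. Named genes are sin-3, the 15 largest rises and the 15 largest falls, and up to 4 called members per list. The rises and falls had at least 5 CPM and a call in each fit that left out 1 wt or sin-3 library. They were also required to have all sin-3 libraries on one side of all wt libraries. Members and lists were chosen with earlier results of these data known; the quintiles and the neighbour counts were chosen after seeing the values. P-values measure the spread between these pools of gonads.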

Additional observations from a re-analysis of the deposited data

How the results depend on the processing

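The number of genes higher in sin-3 was 276, and became 688 with no filter and 583 with DESeq2; leaving out 1 library gave 31 to 693. The number lower was 507, and became 313 with 6 libraries; leaving out 1 library gave 142 to 760. The cause was not tested, beyond the fewer libraries in those fits. The share of higher genes among the calls was 35.2%, and 50.1% with no filter, 44.8% with DESeq2 and 30.7% with a replicate block. Of the 783 calls, 698 were also made with no filter, 757 by DESeq2, 515 with 6 libraries and 199 to 711 without 1 library. Of the named genes, 44 were called between sin-3 and hda-3, and 21 to 46 without 1 library (27 and 21 without hda-3 replicates 4 and 5). No named gene changed direction in the 2069 values computed under alternatives. Of the 1949 values of the 131 called genes, 1446 kept the call and 503 lost it, and of the 120 values of the 8 genes not called, 21 gained one. The X minus autosome difference was 0.46 to 0.79 without 1 library. The median of all genes, 0.12, was 0.15 to 0.17 under the other scalings (RLE, DESeq2 and TMM on autosomal genes), 0.24 with no filter and 0.06 with 6 libraries. Counts in a list also differed by test: DESeq2 called lower 6 cell cycle, 4 eggshell, 3 nuclear pore and 3 centrosome genes (edgeR 3, 1, 1 and 1), and higher 8 lectin and 7 somatic gonad genes (edgeR 5 and 4), with 6.55% of all genes higher and 8.08% lower by DESeq2.

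Whether the labels' replicate numbers pair the libraries cannot be told from 3 libraries a group. Correlations of deviations between same-numbered wt and sin-3 libraries were -0.09, 0.05 and 0.11. Between differently numbered ones they ran from -0.24 to 0.18. With a replicate block 304 genes were higher and 685 lower, and 704 of the 783 calls were made again.

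Depth outside ribosomal RNA was lowest in sin-3 replicate 3, and changes of genes under 1 CPM rest on few reads. With 3 libraries a group, an exact permutation test cannot go below p = 0.1.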
